A study of Mus musculus with 2 samples.

Results

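Cones are the daylight photoreceptors of the retina, and 213 of them were found among the 12936 cells kept from 2 single-cell libraries of mouse retina: 114 of 8274 in the control library and 99 of 4662 in the knockout library. They were chosen by measured values. A cone had to hold at least 2000 UMIs (unique molecular identifiers, each counting 1 captured RNA molecule), a UMI of at least 4 of the genes Arr3, Opn1sw, Opn1mw, Gnat2, Pde6h, Pde6c, Cnga3 and Cngb3, and at least 0.2% of its UMIs in these genes. Müller glia markers had to stay below 0.1% of its UMIs and immune markers at 1 UMI or fewer. The levels of these genes in cones are therefore given as a description.

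The control retinas were of genotype Atg5fl/fl (a floxed Atg5 gene without Cre) and had received 0.5 µg LPS per eye in the vitreous. The knockout retinas were GLAST-CreER; Atg5fl/fl and had received the same LPS together with 4-hydroxy-tamoxifen, so that genotype, Cre and drug cannot be told apart. The GLAST promoter that drives the Cre is known for its activity in Müller glia, and recombination in cones was not measured. LPS, a bacterial cell wall component that sets off inflammation, was given to both groups, and no uninjected retina was analysed here, so its own effect cannot be read. Each library pooled retinas (n = 6 per group, per the labels), and with 1 library per group no difference has a replicate check: every interval below is a 95% interval of counting error only.

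A cone carries 1 or both of a pair of opsins, a short-wavelength one encoded by Opn1sw and a medium-wavelength one encoded by Opn1mw. Light on the opsin activates the cone transducin (Gnat2, Gnb3 and Gngt2), which turns on the phosphodiesterase (Pde6c, held back by Pde6h). The drop in cyclic GMP closes the channel made of Cnga3 and Cngb3, and cone arrestin (Arr3) ends the signal. In the mouse many cones hold both opsins, with Opn1mw prevailing dorsally and Opn1sw ventrally.

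The results on opsins turn on how these 2 genes are divided among cones, and the 250 bases before their RefSeq start sites are shown for that reason (build GRCm38.p6, 5′ to 3′ on the gene's own strand). The Opn1sw window is chr6:29380514-29380763 on the minus strand and the Opn1mw window chrX:74127216-74127465 on the plus strand. Capitals mark TAATC on either strand, letters found in the sites of the photoreceptor factor CRX.

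Opn1sw: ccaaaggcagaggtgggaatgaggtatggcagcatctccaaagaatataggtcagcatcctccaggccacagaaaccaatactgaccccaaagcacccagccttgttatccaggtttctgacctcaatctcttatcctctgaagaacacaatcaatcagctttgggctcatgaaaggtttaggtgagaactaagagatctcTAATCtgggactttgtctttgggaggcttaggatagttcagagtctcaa

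Opn1mw: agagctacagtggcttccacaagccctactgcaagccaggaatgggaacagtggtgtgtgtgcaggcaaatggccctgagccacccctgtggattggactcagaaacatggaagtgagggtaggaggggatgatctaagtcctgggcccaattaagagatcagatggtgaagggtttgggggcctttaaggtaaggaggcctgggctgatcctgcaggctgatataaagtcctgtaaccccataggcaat

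TAATC occurred 1 time in the Opn1sw window and 0 times in the Opn1mw window. Of 32851 such windows in the genome, 19.8% held it. A match is a run of letters and was not tested as a site.

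The fixed cone markers were high in these cells and near absent from rods. Pde6h had a level of 5961 CPM in control cones and 6782 CPM in knockout cones (CPM is the gene's part of all UMIs of a class, scaled to a total of 1000000 UMIs). Over single control cones it ran from 0 to 20880 CPM with a median of 4987 CPM, and over knockout cones from 0 to 21300 CPM with a median of 6416 CPM. In rods the same gene stood at 11.7 and 7.96 CPM. Rods and the other comparison classes were chosen by their own markers and with under 0.1% of UMIs in the 8 cone genes, so this gap was set in part by the choice. Arr3 was at 2658 and 2255 CPM, Gnat2 at 967 and 1004 CPM, Pde6c at 1124 and 1172 CPM and Cngb3 at 1700 and 1285 CPM (control, then knockout). All 8 genes of the rule were detected in 16 control and 18 knockout cones, while 4 and 3 cones held the minimum of 4. The lowest shares inside the rule were 0.206% in control and 0.26% in knockout cones. The highest shares just outside were 0.199% and 0.16%, among 10 control and 15 knockout cells that failed by share.

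Depth was nearly alike in cones of both libraries. The median was 9215 UMIs per control cone (range 2019 to 38763) and 9230 UMIs per knockout cone (2130 to 40697), for summed counts of 1117568 and 940875 UMIs. Of the barcodes, 15 occurred in both libraries, and 1 of these was a cone. In each library 7 cones held at least 0.2% of their UMIs in bipolar or amacrine markers, and values without these cones are given below for Grik1, Zfhx4, Pcdh9, A2m and Mcoln1. Müller glia markers summed to 193 CPM in control and 243 CPM in knockout cones, with 1 and 3 of 10 markers at 0. Endothelial and RPE markers summed to 12.8 CPM or less, and RPE markers were at 0 for 6 and 7 of 8. Female Xist was found in 49.1% and 34.3% of cones and male Ddx3y in 34.2% and 27.3%, so each pool held cells of both sexes. Both transcripts were found in 1 of 99 knockout cones. In control they were found together in 1 of 9 cones high in MHC class I transcripts, described below, and in 9 of the other 105. Mixed barcodes and free RNA were not tested as a cause.

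**Figure D1:**
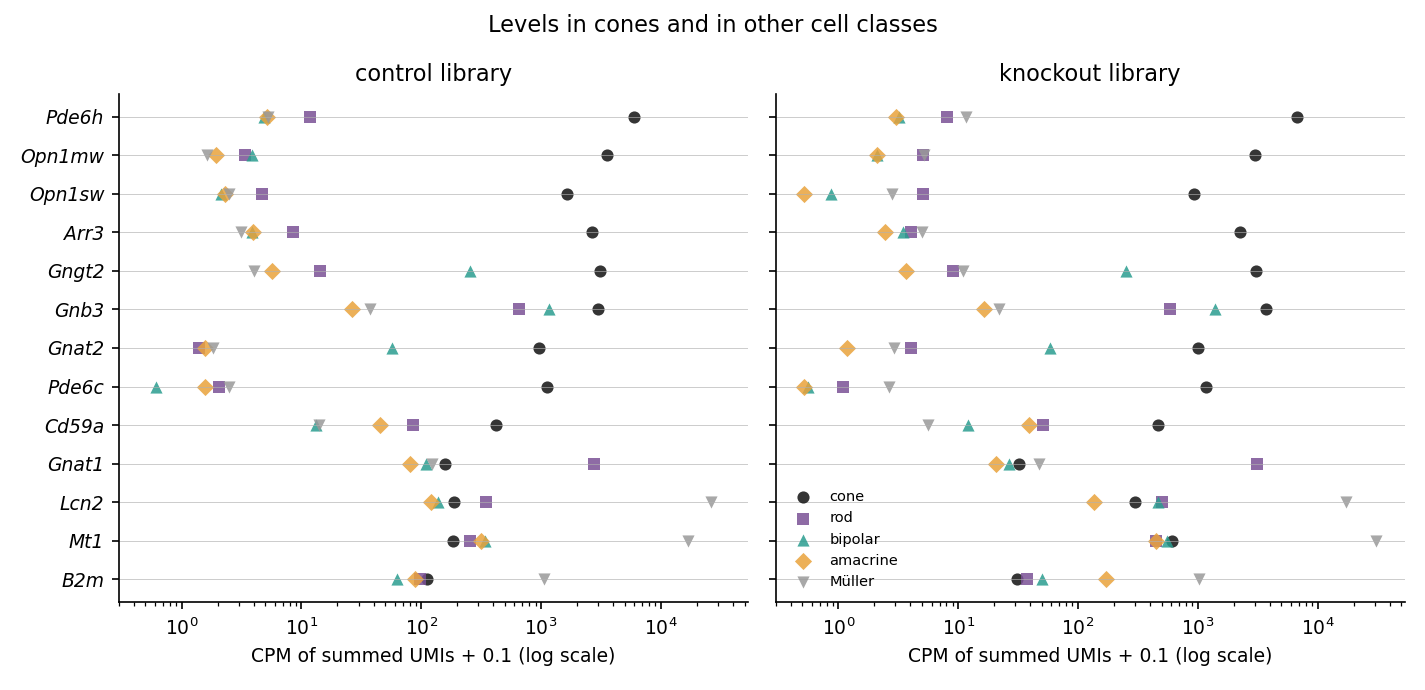
Level of 13 genes (horizontal axis, CPM of summed UMIs plus 0.1, log scale) in cones, rods, bipolar, amacrine and Müller cells of the control library (left) and the knockout library (right). Cone genes such as Pde6h (5961 and 6782 CPM) stand far right of the other classes, while Gnat1 in cones sits close to its level in bipolar cells.

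Cones made up 1.38% (1.14 to 1.65) of kept control cells and 2.12% (1.73 to 2.58) of kept knockout cells. Among cells of at least 2000 UMIs the order was the opposite, with 3.84% (3.18 to 4.598) in control and 2.81% (2.29 to 3.42) in knockout. There were 30.2 control and 15.9 knockout cones per 100 bipolar cells, and 29.2 and 37.5 cones per 100 rods. The share of cones thus changed its order with the denominator. Depth differs beside it: the other kept cells had a median of 1384 UMIs in control and 6716 UMIs in knockout, and its part in the shares was not tested.

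Most cones held Opn1mw, and many held both opsins. Opn1mw was at 3552 CPM in control cones (cells 0 to 12910, median 3309) and 3026 CPM in knockout cones (0 to 13100, median 2719). Opn1sw was at 1654 CPM in control and 937 CPM in knockout cones, and its median over cells was 0 in both. A UMI of both opsins was found in 38 of 114 control cones (33.3%, 24.8 to 42.8) and 32 of 99 knockout cones (32.3%, 23.3 to 42.5). Opn1mw alone was found in 62 and 54 cones, Opn1sw alone in 10 and 11, and neither in 4 and 2. Rods, which should lack both, held a UMI of Opn1sw in 1.54% and 1.89% of cells and of Opn1mw in 1.28% and 1.89%, at median depths of 3409 and 3698 UMIs.

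Among cones with at least 10 opsin UMIs, 92 in control and 84 in knockout, the Opn1sw part of opsin UMIs was used to set ranges, which are not cell types. It was 0.1 or less in 59 control cones (64.1%, 53.5 to 73.9) and 51 knockout cones (60.7%, 49.5 to 71.2). It lay between in 25 (27.2%) and 22 (26.2%). It was 0.9 or more in 8 (8.70%, 3.83 to 16.4) and 11 (13.1%, 6.72 to 22.2). For each range the intervals of both libraries overlapped. Within 0.05 of the lower bound there were 8 and 6 cones, and within 0.05 of the upper bound 3 and 3.

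**Figure D2:**
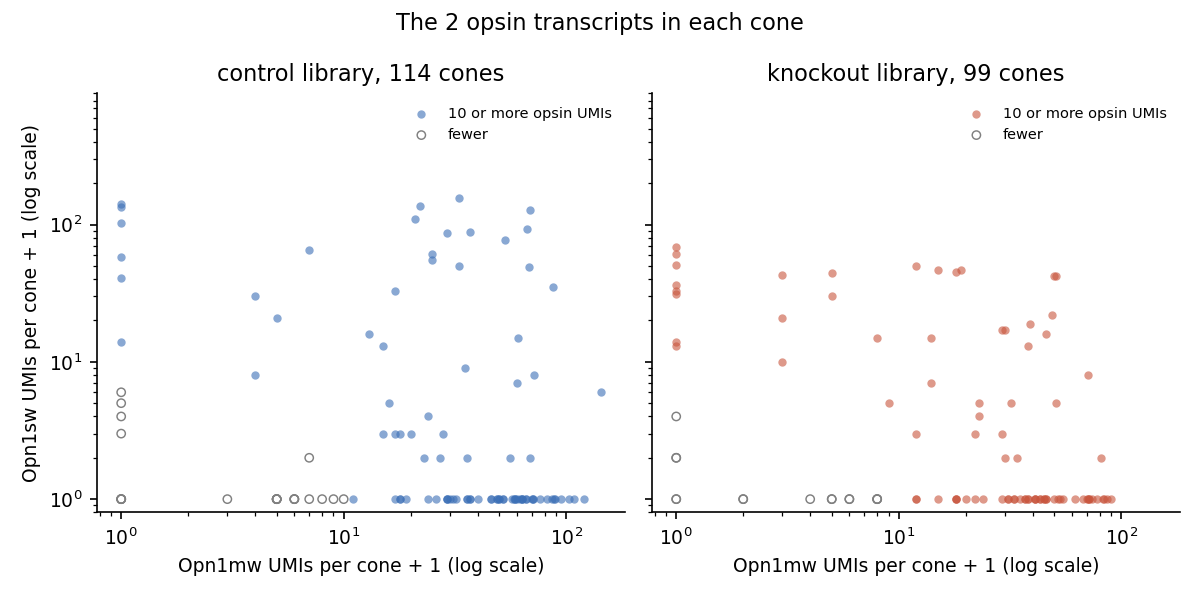
Opn1mw UMIs plus 1 (horizontal) against Opn1sw UMIs plus 1 (vertical) in each cone, both on log scales, for 114 control cones (left) and 99 knockout cones (right); open circles are cones with fewer than 10 opsin UMIs. A row of cones lies at 0 Opn1sw in both panels (49 control and 44 knockout cones with 10 or more opsin UMIs), and the highest Opn1sw counts are in control cones.

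The summed level of Opn1sw was lower in cones of the knockout library, while 42.1% of control and 43.4% of knockout cones held a UMI of it. Its ratio, knockout over control, was 0.567 (0.522 to 0.614), from 1849 UMIs in 48 cones and 882 UMIs in 43 cones. In cones with an Opn1sw part of 0.9 or more the median was 60.5 UMIs in control and 35 UMIs in knockout cones, at median depths of 8900 and 7153 UMIs. The highest count in a single cone was 154 UMIs in control and 68 in knockout. The ratio was 0.588 without the 3 cones of each library with most Opn1sw. It was 0.678 by the mean of CPM over cells and 0.677 with each cone thinned to 2000 UMIs, both short of 1.5-fold. It turned to 1.38 once the cones above the median in rod marker UMIs were left out of each library. Rod markers moved with opsin: their median share was 1.06% in control cones mostly of Opn1sw and 0.576% in those mostly of Opn1mw, against 0.626% and 0.465% in knockout cones. Their part in the Opn1sw ratio was not tested.

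The other phototransduction genes of cones differed by less than 1.5-fold between the libraries. Across the 9601 genes with at least 20 UMIs in cones, 7.94% were at least 1.5-fold higher and 10.8% at least 1.5-fold lower in knockout cones, with a median log2 ratio of -0.02. Of 22 cone phototransduction genes 21 passed this minimum, and of these 0 were past 1.5-fold higher and 1, Opn1sw, was past it lower (median log2 ratio -0.02). Opn1mw had a ratio of 0.852, Arr3 0.849, Cngb3 0.756, Pde6h 1.14, Gnat2 1.04 and Gnb3 1.25. Of 19 outer segment and cilium genes 1 was lower, Rp1, a microtubule protein of the outer segment (ratio 0.64). Of 23 genes of the ribbon synapse, by which cones release glutamate, 1 was lower (Cacnb2, a calcium channel subunit, ratio 0.659) and 2 were higher. The higher pair were Pcdh9 and Elfn2. Pcdh9 had 470 of its 708 knockout UMIs in 1 cell, and its ratio of 2.69 became 0.785 without the cones rich in bipolar or amacrine markers.

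Among 13 measured photoreceptor transcription factors, 2 were lower and 0 higher, against 10.8% and 7.94% of all genes. Thrb, the thyroid hormone receptor that directs the medium-wavelength fate, was at 818 and 757 CPM (ratio 0.925, 0.838 to 1.02). Rxrg, its partner receptor, was at 41.2 and 38.3 CPM, and Sall3 at 60.9 and 67.0 CPM. The lower pair were Prdm1, a repressor active in young photoreceptors (172 and 93.5 CPM) and Esrrb (27.7 and 11.7 CPM). Esrrb, a nuclear receptor of rods, was at 386 and 331 CPM in rods, and its ratio in bipolar cells was 0.183.

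Rod transcripts seen in cones were lower in the knockout library, and so were the same transcripts in other neurons. Gnat1, the rod transducin, had a UMI in 64.0% of control cones (54.5 to 72.8) and 17.2% of knockout cones (10.3 to 26.1). Its level was 157 CPM in control cones (cells 0 to 1419, median 90.1) and 31.9 CPM in knockout cones (0 to 1011, median 0), a ratio of 0.203 (0.133 to 0.299). Bipolar cells, which should lack it, held a UMI in 61.4% and 19.3% of cells and stood at 110 and 26.2 CPM (ratio 0.238). In rods it was at 2746 and 3136 CPM. Of 14 rod phototransduction genes 11 were at least 1.5-fold lower in knockout cones and 0 higher, against 10.8% and 7.94% of all genes. The list's median log2 ratio was -2.08. The median was -0.90 without the cones above the median in rod marker UMIs and -1.09 with each cone thinned to 2000 UMIs. The list's rod factor Nrl had a ratio of 0.145 in cones and 0.177 in bipolar cells. The 3 genes that were not past 1.5-fold, Sag, Gngt1 and Pde6g, stood well above their bipolar levels in cones: Sag was at 2465 and 1992 CPM in cones and at 204 and 53.7 CPM in bipolar cells. The part of free rod RNA in the list's difference was not tested.

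A small set of control cones carried MHC class I and interferon-induced transcripts at levels that no knockout cone reached. The list of 31 such genes, 23 of them with at least 20 UMIs, covers antigen presentation (H2-K1, B2m, Tap1, Psmb8, Psmb9) and GTPases induced by interferon gamma (Irgm1, Iigp1, Igtp, Gbp3, Gbp7). Summed over the list, 9 of 114 control cones (7.89%, 3.67 to 14.5) held 4729 to 14910 CPM. The next control cone held 2094 CPM, the median was 708 CPM, and the highest of 99 knockout cones held 2740 CPM (median 749 CPM). With 0 of 99, knockout cones allow a share of up to 3.66%. The bound of 4000 CPM was set after these values were seen and fell in a gap: 1 control and 6 knockout cones held 2000 to 4000 CPM.

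**Figure D3:**
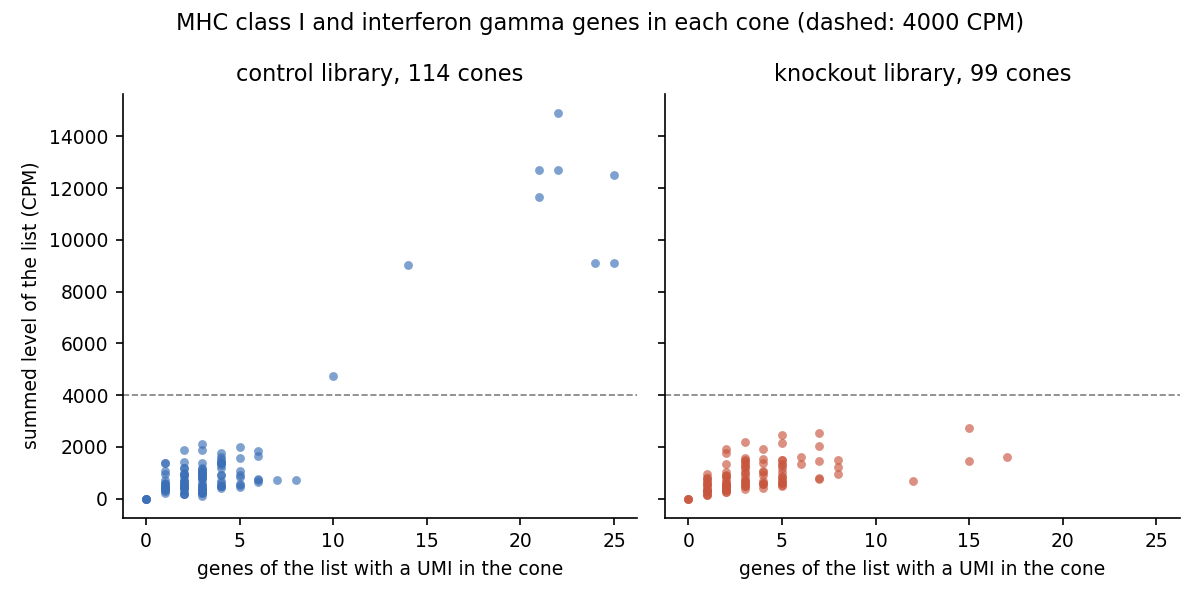
Summed level of the MHC class I and interferon gamma list in CPM (vertical) against the number of its genes with a UMI (horizontal) in each of 114 control cones (left) and 99 knockout cones (right); the dashed line is 4000 CPM. The 9 control cones above the line hold 10 to 25 genes of the list, the other control cones at most 8, and knockout cones at most 17.

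These 9 cones held 1387 of the list's 2074 UMIs in control cones (66.9%). H2-K1, a class I heavy chain, was at 2228 CPM in them, 51.4 CPM in the other 105 control cones and 74.4 CPM in knockout cones. B2m, the light chain, was at 861, 19.1 and 30.8 CPM in the same order. Gbp7 was at 523, 4.03 and 5.31 CPM, and Tap1, the peptide transporter, at 330, 2.01 and 3.19 CPM. Iigp1 had all of its 90 control UMIs in 6 of these cones and 0 UMIs in knockout cones, at least 25.3-fold lower against a floor of 3 UMIs per library. H2-D1 was less concentrated, with 1569, 414 and 511 CPM. Of the interferon list of type I, Ifit3 was at 475, 4.03 and 11.7 CPM and Ifit1 at 338, 11.1 and 10.6 CPM. Outside both lists, the genes with the highest fold in these cones included Tgtp1 (193, 0 and 0 CPM), H2-Q6 (273, 5.03 and 8.503 CPM) and Cd274, which encodes PD-L1 (169, 5.03 and 1.06 CPM). They had 24, 34 and 21 UMIs in the 9 cones. Because they were picked by their level in these same cells, they are no separate support for the set.

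Cone marker shares of these 9 cells lay within the range of the other cones. Markers of the rule took a median of 1.44% of their UMIs (0.499% to 2.93%), against 1.71% in the other control cones. Their median depth was 13540 UMIs and ranged from 2989 to 26049 UMIs, against 8836 UMIs in the other control cones. Müller markers stayed at or below 0.00769% of UMIs, immune markers at 1 UMI or fewer and bipolar markers at or below 0.139%. Opn1mw outnumbered Opn1sw in 8 and Opn1sw led in 1. Xist was found in 8 of the 9 and in 48 of the other 105. Ddx3y was found in 1 and 38, and 1 and 9 of these also held Xist. Arr3 was at 1167 CPM in them and 2844 CPM in the others, Pde6h at 8608 and 5630 CPM, and Mt1 at 40.2 and 202 CPM.

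Summed over all cones, the list was lower in the knockout library. Of its 23 measured genes, 17 were at least 1.5-fold lower in knockout cones and 0 higher, with a median log2 ratio of -1.97 (-1.98 with the 2 genes at 0 in knockout cones set to their bound). The median over all genes was -0.02. Measured genes were chosen by UMIs of both libraries together, and some passed only through the 9 control cones. Gbp3 had 23 UMIs in these, 0 in the other control cones and 0 in knockout cones, and Igtp 31, 3 and 2. Others, such as H2-D1, passed without them (411 and 481 UMIs). Genes like Gbp3 could only come out lower, so the count of 17 and the median were set in part by this choice. From 1 UMI up the list's median was -1.41. The list's median was -0.13 with each cone thinned to 2000 UMIs, -0.96 in cones with both opsins and -1.63 without the 3 cones of each library with most UMIs of each gene. H2-K1 had a ratio of 0.254, H2-Q7 of 0.0922 and Irgm1 of 0.072. The 9 cones held 277 of the 328 control UMIs of H2-K1 and 112 of the 116 of H2-Q7. They were picked by the list's own sum and all lie in control, so leaving them out raises the list's ratios by construction and says nothing on the other cones. Of 15 measured genes of the type I interferon response, 6 were lower and 2 higher (median -0.15).

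Cells above 4000 CPM of the same list were common among Müller glia in both libraries, 142 of 224 (63.4%) in control and 260 of 356 (73.0%) in knockout. Among rods they were 34 of 390 (8.72%, 6.11 to 11.97) in control and 1 of 264 (0.379%, 0.00959 to 2.09) in knockout, the same order as in cones. Among bipolar cells they were 6.09% and 1.45%, and among amacrine cells 4.88% and 7.71%. Rods were shallower than cones (medians of 3409 and 3698 UMIs), so fewer UMIs of the list carried a rod past the bound. The difference between classes was not tested.

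**Figure D4:**
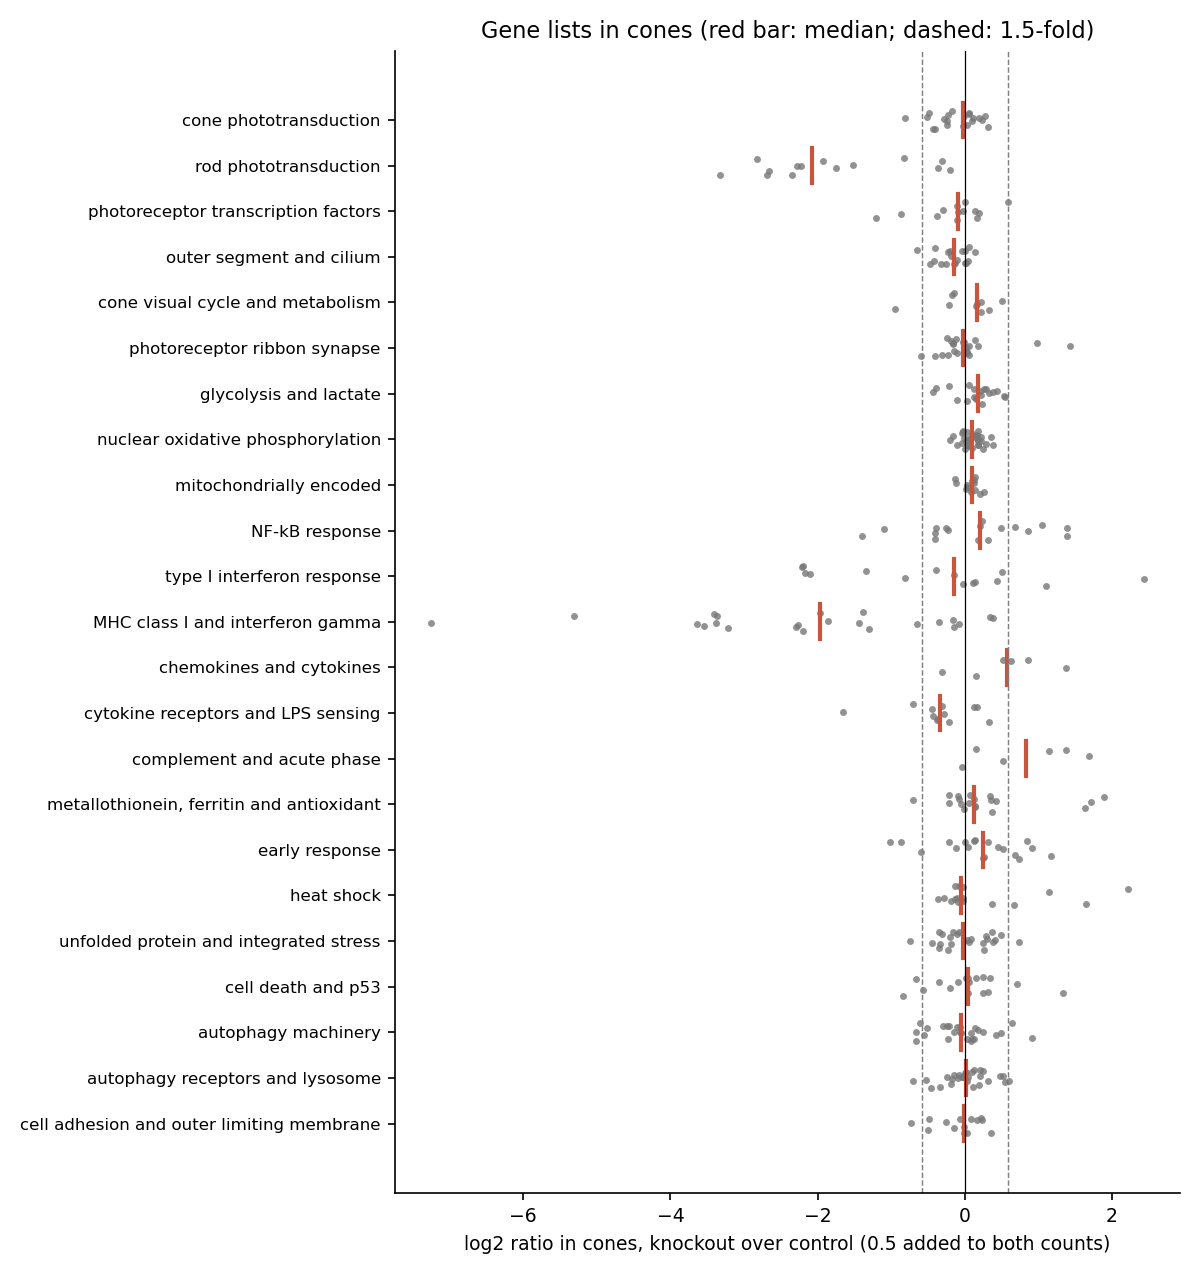
Log2 ratio of each measured member of the gene lists in cones, knockout over control, with 0.5 added to both counts (horizontal; points spread vertically for legibility, red bars are medians, dashed lines 1.5-fold). The MHC class I list has its median at -1.97, the rod list lies at -2.08, and the cone and energy lists lie close to 0.

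Metallothioneins, small metal-binding proteins that respond to zinc, stress and inflammation, were higher in knockout cones. Mt1 was at 184 CPM in control cones (cells 0 to 4542, median 0) and 605 CPM in knockout cones (0 to 21730, median 137), a ratio of 3.28 (2.79 to 3.87). The cells of both libraries overlapped widely. Mt2 was at 57.3 and 213 CPM (ratio 3.71, 2.79 to 4.999). A UMI of Mt1 was found in 44 control and 73 knockout cones. A single knockout cone held 248 of 569 Mt1 UMIs, and without the 3 cones of each library with most Mt1 the ratio was 3.69. It was 12.1 without the tenth of cones with most UMIs and 1.23 without the cones above the median in rod marker UMIs. The other classes went the same way. Müller glia held far more Mt1 (16850 and 30850 CPM), bipolar cells had 341 and 550 CPM and amacrine cells 317 and 449.9 CPM. Rods had 257.8 and 444.5 CPM, with a UMI in 33.6% and 68.2% of cells, against 38.6% and 73.7% of cones. Müller markers summed to 193 and 243 CPM in cones, and 2 knockout cones held over 0.2% of their UMIs in them. The part of free glial RNA was not tested.

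Most other inflammatory transcripts in cones were sparse. Lcn2, an acute-phase protein that Müller glia made in bulk here (26210 and 17360 CPM), was at 186 and 300 CPM in cones (ratio 1.61), at 138 and 468 CPM in bipolar cells and at 350 and 502 CPM in rods. Over cones its median was 170 and 151 CPM, and without the 3 cones of each library with most of it the ratio was 1.225. Neutrophil markers in cones, 63.0% and 73.3% of them Lcn2, summed to 295 and 409 CPM. Beside the list counts that follow, 7.94% of all genes were at least 1.5-fold higher and 10.8% lower. Of 17 measured NF-kB response genes 5 were higher and 2 lower: Cebpb was at 15.2 and 40.4 CPM, Socs3 at 66.2 and 120 CPM, and Rela at 23.3 and 8.503 CPM. Of the complement and acute-phase list 6 of 22 genes were measured, with 3 higher (A2m, Serpina3n and Cp), all of them higher in Müller glia or bipolar cells than in cones. Without the cones rich in bipolar or amacrine markers the ratio of A2m fell from 3.29 to 1.48, below 1.5-fold. Cd59a, an inhibitor of complement on the cell surface, was at 420 and 464 CPM in cones against 85.3 and 50.7 CPM in rods. Of 12 measured cytokine receptor and LPS sensing genes 0 were higher and 2 lower. Of 6 measured chemokine and cytokine genes 3 were higher, each on 18 UMIs or fewer in a library.

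Energy genes lay within 1.5-fold between the libraries, while autophagy machinery genes were past it about as often as all genes. Of 20 measured glycolysis genes 0 were past 1.5-fold either way, with a median log2 ratio of 0.18, and the same held for 32 nuclear genes of oxidative phosphorylation (0.10) and 13 mitochondrially encoded genes (0.09). Hk2, the hexokinase of photoreceptors, was at 814 and 1183 CPM, and Aldoa at 1943 and 2322 CPM. Of 26 autophagy machinery genes 2 were higher (Atg7 and Atg101) and 3 lower (Atg10, Atg12 and Ulk2), against 7.94% and 10.8% of all genes. Atg5, the floxed gene, had 47 UMIs in control and 34 in knockout cones, a ratio of 0.859 (0.536 to 1.37). In Müller glia it was at 19.9 and 17.8 CPM. Whether these 3′ reads lie outside the deleted part is not given in the sources used here, so they do not check the deletion. Of 28 autophagy receptor and lysosome genes 1 was higher (Bnip3, 57.3 and 87.2 CPM) and 1 lower (Mcoln1, ratio 0.594, and 0.79 without the cones rich in bipolar or amacrine markers).

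Stress lists were mixed, and of all genes 7.94% were higher and 10.8% lower. Of 16 heat shock genes 4 were higher, among them Hspa1b (8 and 22 UMIs) and Cryab (5 and 21 UMIs), and the abundant Hsp90aa1 was at 1532 and 1512 CPM. Of 19 early response genes 5 were higher and 3 lower: Jun was at 114 and 191 CPM, Fosb at 170 and 274 CPM and Dusp1, a phosphatase that shuts off MAP kinases, at 72.5 and 39.3 CPM. Of 24 unfolded protein and integrated stress genes 1 was higher (Asns) and 1 lower (Pdia4). Of 17 cell death and p53 genes 2 were higher and 2 lower. Of 19 metallothionein, ferritin and antioxidant genes 3 were higher, all of them metallothioneins, and 1 lower (Cat, 14 and 7 UMIs). The adhesion list had 0 higher and 1 lower of 14, and the visual cycle list 0 higher and 1 lower of 10.

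The 12 largest and 12 smallest ratios among 4389 eligible genes rested in part on few cells. The largest was that of Grik1, a kainate receptor subunit of OFF bipolar cells, at 121 and 741 CPM (ratio 6.13), but 395 of its 697 knockout UMIs came from 1 cell. Without the cones rich in bipolar or amacrine markers it was 1.71, and without the tenth of cones with most UMIs 0.171. Bipolar markers summed to 368 CPM in control and 938 CPM in knockout cones, 78.9% of the latter Grik1, while amacrine markers summed to 616 and 305 CPM. Fbxl7 had 101 of 184 knockout UMIs in 1 cell. Zfhx4 had 74 of 174, and without the 3 cones of each library with most of it the ratio of 2.30 became 1.15, and without the cones rich in bipolar or amacrine markers 1.08. Spread over more cells were Mctp1, a calcium-binding membrane protein, at 177 and 408 CPM in 41 and 67 cones (ratio 2.30, 1.94 to 2.75), Cyp4v3 at 30.4 and 76.5 CPM (2.52, 1.65 to 3.901), Ccdc113 at 16.1 and 49.95 CPM in 17 and 32 cones, and Rbm20 at 19.7 and 53.1 CPM. Fign, Ccm2, Arhgef28, Taf1b and Tcirg1, a subunit of the proton pump, made up the rest, with ratios from 2.18 to 2.64.

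On the lower side the 3 smallest ratios were those of Irgm1, Gbp7 and H2-Q7, genes of the interferon list above. In control they had 55, 65 and 112 UMIs in the 9 cones and 11, 4 and 4 UMIs in the other cones. Pla2r1, a phospholipase receptor, was at 180 and 80.8 CPM in 76 and 41 cones (ratio 0.449, 0.340 to 0.588), and its ratio was 0.617 in rods and 0.311 in bipolar cells. Gpr158, an orphan receptor, was at 175 and 74.4 CPM (0.424). Trhde, which degrades thyrotropin-releasing hormone, was at 76.1 and 20.2 CPM (0.266), and Pde10a, a phosphodiesterase, at 344 and 154 CPM, with 111 of its 384 control UMIs in 1 cell. Rab40c, Mtmr2, Ofd1, E2f4 and Cep135 had ratios from 0.373 to 0.443 on 13 to 51 UMIs per library. Of the 24 genes, 13 were past 1.5-fold the same way under every alternative run. The runs used the same cells from which the 24 were picked, and those that changed only the minimum UMIs could not move a ratio.

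Genes higher in cones than in rods lay both within and outside the phototransduction list. Of 9290 genes with at least 50 UMIs in cones and rods together, 8.71% were at least 2-fold higher in cones in both libraries and 5.71% at least 2-fold lower. Of 22 cone phototransduction genes 11 were higher, the 8 genes of the rule among them, and 4 lower. Cdh18, a cadherin, was at 3323 and 3129 CPM in cones and at 6.51 and 9.94 CPM in rods. Jam3, a junction protein, was at 566 and 724 CPM in cones and 3.91 and 1.99 CPM in rods. Slc24a2, the cone exchanger for sodium, calcium and potassium, was at 771 and 933 CPM against 1.30 and 4.97 CPM. Pygm, a glycogen phosphorylase, was at 277 and 308 CPM against 5.21 and 1.99 CPM, and Ckb, the brain creatine kinase, at 2242 and 2025 CPM against 414 and 489 CPM.

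Gsdme and Nfkb1 were also above rods, and were picked here after their values were seen. Their lists did not lean that way: of 17 cell death and p53 genes 3 were at least 2-fold higher than in rods and 4 lower, of 17 NF-kB response genes 1 was higher and 3 lower, and of 18 type I interferon genes 0 were higher and 9 lower. Gsdme, the gasdermin that caspase-3 cleaves to form membrane pores, was at 782 and 995 CPM in cones, 31.9 and 56.7 CPM in rods, 159 and 180 CPM in bipolar cells and 21.2 and 22.03 CPM in Müller glia. It had a UMI in 106 of 114 control and 97 of 99 knockout cones. Nfkb1, the precursor of the p50 subunit of NF-kB, was at 260 and 196 CPM in cones, 6.51 and 2.98 CPM in rods and 264 and 680 CPM in Müller glia. In both libraries Gsdme and Nfkb1 were higher in cones than in rods by more than 10-fold.

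The 20 genes with the highest cone level over all other kept cells, outside the rule, were led by Agr2, a disulfide isomerase of the endoplasmic reticulum. It was at 77.9 and 114 CPM in cones and 0.238 and 0.391 CPM in all other cells. Cckbr, a cholecystokinin receptor, was at 58.2 and 84.0 CPM, Otop3, a proton channel, at 73.4 and 60.6 CPM, and Fabp7, a fatty acid binding protein, at 41.2 and 59.5 CPM, each under 1 CPM in all other cells. Jchain, known as the joining chain of antibodies, was at 199 and 216 CPM in 84 and 72 cones, against 8.79 and 2.74 CPM in all other cells. Gulo, the last enzyme of vitamin C synthesis, was at 69.8 and 77.6 CPM, and Pgc, a pepsinogen, at 93.1 and 68.0 CPM. The others were Clca1, Wdr95, Gngt2, Chrnb4, Sall3, Mogat1, Lin7b, Kcne2, Klhl4, Wwc1, Mylk, Cd59a and Prtg. Their ratios between libraries ran from 0.731 for Pgc to 1.46 for Agr2.

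At the other end stood transcripts that cones hold less of than rods. Prph2, a rim protein of the outer segment, was at 702 and 724 CPM in cones and 2615 and 3028 CPM in rods. Pdc, phosducin, was at 840 and 624 CPM against 3262 and 4466 CPM. Drd4, a dopamine receptor, was at 65.3 and 62.7 CPM against 267 and 247 CPM, and Ahr, the aryl hydrocarbon receptor, at 77.9 and 82.9 CPM against 372 and 329 CPM. Rod RNA was found in cells of every class, and its part in these cone levels was not tested.

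Cones mostly of Opn1sw and cones mostly of Opn1mw stood apart in a small set of further genes. The first set held 23 control and 19 knockout cones with an Opn1sw part of 0.5 or more, the second the 59 and 51 cones with a part of 0.1 or less. The sets were made from opsin UMIs alone, so the opsins themselves are no result here. Of 5670 genes with at least 50 UMIs in these cones, 0.653% were at least 2-fold higher in the Opn1sw set in both libraries and 1.69% at least 2-fold lower. Of these, 28 and 54 also had a UMI in at least 25% of the cells of the higher set in both libraries, and the genes below were picked after their values were seen. The Opn1sw set summed to 233893 UMIs in control and 153530 in knockout, the Opn1mw set to 674416 and 546459. A low count in the Opn1sw set thus rests on fewer UMIs, and 28 and 54 do not show which set differs more.

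Ccdc136, a coiled-coil protein, led the genes of the Opn1sw set. It was at 1338 CPM against 104 CPM in control cones and at 951 against 36.6 CPM in knockout cones, with a UMI in 23 of 23 and 18 of 19 cones of that set. Kcne2, a potassium channel subunit, was at 359 against 84.5 and 306 against 113 CPM. Pex5l, a regulator of HCN channels, was at 551 against 193 and 339 against 98.8 CPM, and Rxrg at 81.2 against 32.6 and 78.2 against 23.8 CPM. Some phototransduction genes lay on the same side: Gnat2 at 1719 against 810 and 1563 against 743 CPM, and Guca1a, which activates guanylate cyclase, at 3955 against 1827 and 3706 against 1998 CPM. Others leaned little: Pde6h was at 7003 against 6024 and 7464 against 6440 CPM, and Arr3 at 3296 against 2577 and 2267 against 2050 CPM. Transcripts shared with rods leaned to the Opn1sw set as well, Sag at 4301 against 1988 and 2905 against 1618 CPM and Pde6g at 1419 against 602 and 879 against 485 CPM. Rod marker shares had medians of 1.06% against 0.576% and 0.626% against 0.465%. Sag and Pde6g are themselves among the 10 rod markers, and Sag made up 37.4% and 38.9% of their sum in cones. The shares are therefore no separate observation, and the part of rod RNA was not tested. Thrb was at 812 against 811 CPM in control cones and 580 against 769 CPM in knockout cones.

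Genes of the Opn1mw set were in part close to absent from the other. Zfhx4, a transcription factor, had a UMI in 27 of 59 and 24 of 51 cones of the Opn1mw set, and in 0 of 23 and 2 of 19 of the Opn1sw set. It and Trnp1 were also high in bipolar cells, at 533 and 542 CPM and at 1497 and 1629 CPM. Trnp1 was at 174 and 267 CPM in the Opn1mw set and at 8.55 and 0 CPM in the Opn1sw set. Nr2f2, which encodes the nuclear receptor COUP-TFII, had a UMI in 24 and 24 cones of the Opn1mw set and in 0 and 1 of the Opn1sw set. Blvrb, a biliverdin reductase, was found in 16 and 21 against 0 and 2 cones. Lin7b, a synaptic scaffold protein, was at 380 against 38.5 and 459 against 117 CPM, and Mrps25, of the mitochondrial ribosome, at 558 against 103 and 935 against 208 CPM. Gsdme leaned to the same side, with 897 against 573 and 1171 against 599 CPM.

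**Figure D5:**
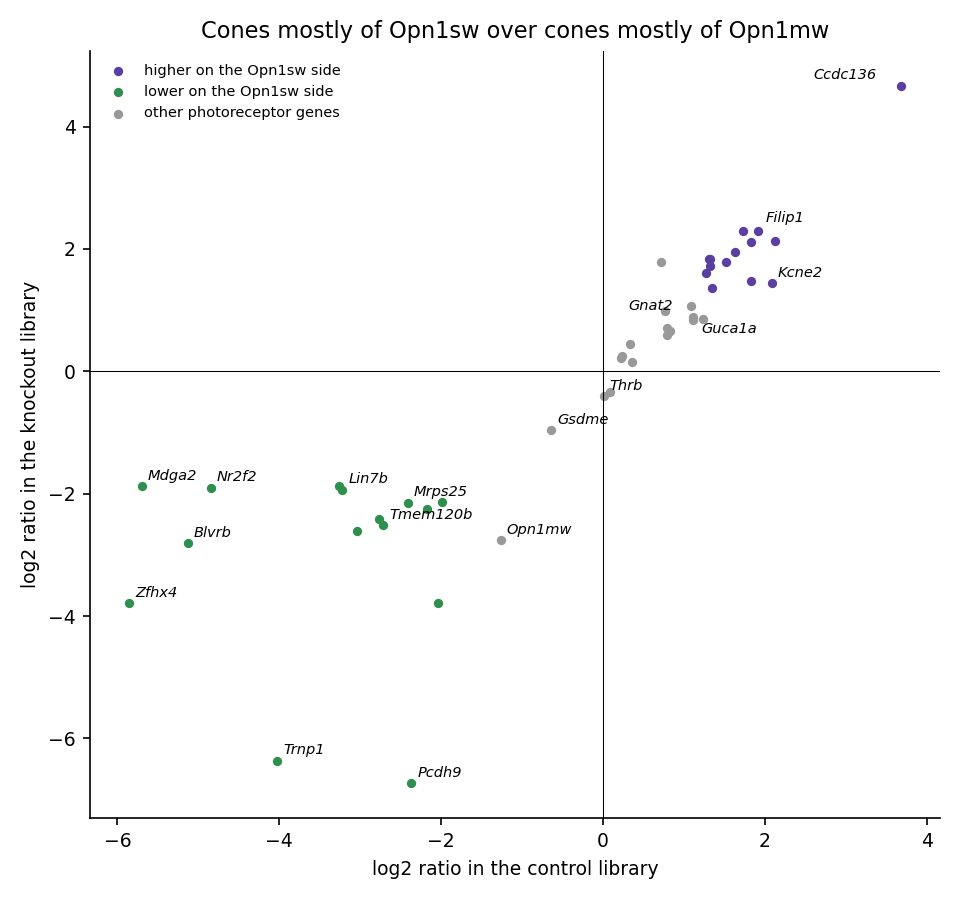
Log2 ratio of cones mostly of Opn1sw over cones mostly of Opn1mw in the control library (horizontal) and the knockout library (vertical), with 0.5 added to each count, for the leading genes on each side and other photoreceptor genes; Opn1sw is not drawn. The leading genes were picked for agreement of both libraries and lie at both ends, and Thrb lies nearer 0.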

How the data were processed

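Single-cell RNA of dissociated retina was measured with a 3′ droplet assay in 1 control and 1 knockout library, each from pooled retinas. Whole-number UMI counts per gene and cell barcode were deposited by the authors, who used Cell Ranger 6.0.0, Seurat 5.2.1 and build mm10, per the submitters' processing notes. The annotation release and the roles of these tools are not given in the sources used here, and no cell annotation was used.

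Cells with at least 500 genes and under 25% mitochondrial UMIs were kept, which left 8274 of 8690 control and 4662 of 5229 knockout barcodes, and cones were taken by the rule given above. Comparison cells also needed 2000 UMIs. They needed a share of rod markers of at least 1%, of bipolar markers of 0.5%, of amacrine markers of 0.2% or of Müller markers of 0.3%, with under 0.1% in markers of other classes and of cones; these bounds were set after the data were seen. Doublets were not called. UMIs were summed over the cells of a class and divided by the class total (CPM). Log2 ratios had 0.5 added to both counts. Shares carry exact Clopper-Pearson intervals, levels exact Poisson and ratios exact conditional binomial intervals, all at 95% and for counting error only; with 1 library per group no test was made.

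The members and the gene lists were chosen with earlier results of these data known. Genes were named by rule: the 12 largest and 12 smallest ratios among genes with at least 50 UMIs, a UMI in 10 cones of the higher library and a level there no lower than in other cells; the 20 highest over other cells, among genes with at least 100 UMIs; the 10 at either end of the comparison with rods; and, from each list, the members at both ends of the ratios and the 2 of highest level. All 8 genes of the cone rule, Atg5, Thrb, Rxrg, Ccdc136, Gnat1 and Nrl were always named, and a few genes are not reported here. Other genes were chosen after their values were seen.

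Alternatives changed depth, cone marker share, mitochondrial share, minimum UMIs, thinning, scaling (TMM, edgeR 4.0.16 in R 4.3.3), averaging and the cones used. Counts were handled in Python 3.11.15 with numpy 2.4.6, scipy 1.17.1 and pandas 2.3.3. Only the log2 ratio formula was tried on simulated data, which were summed counts without spread between cells.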

Additional observations from a re-analysis of the deposited data

Results flagged for a closer look

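Among the genes with the largest ratios in cones, 2 stood on opposite sides of 1 in cones and in rods. The ratio of Cyp4v3, knockout over control, was 2.515 (1.651 to 3.901) in cones, from 34 and 72 UMIs, and 0.2546 (0.104 to 0.5428) in rods, from 48 and 8 UMIs. The ratio of Mctp1 was 2.304 (1.936 to 2.749) in cones, from 198 and 384 UMIs, and 0.4911 (0.3782 to 0.6322) in rods, from 255 and 82 UMIs. With 1 library per group the difference between cones and rods was not tested for either gene.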

How the results depend on the processing

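No paired analysis was possible because each group holds 1 library, and no alternative replaces a second one. Of 92 values of the 4 main results under the alternatives, 81 stayed within the limits set and 11 moved. Genes past 1.5-fold numbered 484 higher and 591 lower with each cone thinned to 2000 UMIs, 3427 and 3762 from 1 UMI up, and 291 and 440 from 50 UMIs up; these settings change how many genes and UMIs are counted. Genes 2-fold higher in cones than in rods numbered 317 after thinning. The control cone share was 1.027% at a floor of 4000 UMIs. Without the cones above the median in rod marker UMIs, an Opn1sw part of 0.1 or less was found in 81.82% of control and 75.68% of knockout cones and of 0.9 or more in 2.273% of control cones; Opn1sw had a ratio of 1.376. Without the 9 control cones, which were picked by this list's sum in 1 library, the median of the MHC class I list was 0.5312, Gbp7 was at 1.32, H2-Q7 at 2.375, H2-K1 at 1.449 and Ifit3 at 2.903, a rise set by that choice. Without the tenth of cones with most UMIs Grik1 was at 0.1714, Pcdh9 at 0.4599, Tgfb2 at 0.9406 and Nr4a2 at 1.581. In cones with both opsins Fbxl7 was at 0.9324, Arhgef28 at 0.5328 and Nr4a2 at 1.492. Without cones rich in bipolar or amacrine markers Pcdh9 was at 0.7854 and Rsad2 at 0.2964. Pcdh9 was at 0.6219 without its 3 top cones, Nr4a2 at 1.419 by the mean over cells and Bcl2 at 1.382 after thinning. Where no value above shows it, the cause was not tested. Of 2318 gene ratios 17 reversed and 262 moved, and of 343 list medians 1 reversed and 40 moved. The gene ratios include the 2 settings of minimum UMIs, which cannot change a gene's own ratio, so their tally overstates stability. The alternatives without the 9 cones and without cones rich in other neurons' markers were chosen after seeing the data. At these depths, genes of under 20 UMIs in cones allow no statement.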
